A study of Mus musculus with 6 samples.

Results

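The A-kinase anchoring protein genes described here were those whose mouse symbol is Akap followed by a number, that could be read in kidney RNA libraries, and that averaged at least 5 CPM (counts scaled to the library's total) in either group. They were thus selected on their mean level in the groups compared here, and Akap12 also for its difference between them. The annotation holds 14 genes with such a symbol, 9 of them could be read, and 7 passed the level: Akap1, Akap7, Akap8, Akap9, Akap11, Akap12 and Akap13. In the whole series 9519 genes could be read. The libraries came from kidneys of C57BL/6 mice, the standard inbred laboratory strain, at postnatal day 21, with 3 libraries labelled acute renal failure (ARF) and 3 labelled healthy. The labels name no transgene or deletion, although the deposited files' own names call the ARF-labelled group mutant and the other WT. The sample titles call the ARF-labelled libraries treat and the others control, without saying how renal failure was brought about or whether each library is a different animal. The p-values therefore measure the spread between these libraries, which may be technical.

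A-kinase anchoring proteins are scaffolds that bind the regulatory subunits of protein kinase A (PKA), the main kinase that answers to cyclic AMP, and hold it at a place in the cell. Most also bind phosphatases, phosphodiesterases or other kinases, so that the signal is started and ended at the same site. In the kidney, cyclic AMP and PKA are best known for the vasopressin response of the collecting duct, in which the water channel aquaporin-2 moves to the cell surface, and for the answer of the tubule to parathyroid hormone.

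The total count was 5455886 to 6191479 per ARF-labelled library and 2873370 to 5710010 per healthy-labelled library. The gene names in the deposited files did not belong to the reads, so each gene was named by the exons of the mouse assembly GRCm38 under the counted intervals, which often cover a small part of it. A member's CPM is the whole count of the intervals assigned to it, and these can also reach outside annotated exons. The base numbers below give only the gene's exon bases inside those intervals. Levels of different members are therefore not compared. Genes of the proximal tubule summed to 2898 to 4231 CPM in the ARF-labelled and 6585 to 10357 CPM in the healthy-labelled libraries, and those of the loop, distal tubule and collecting duct to 17566 to 22555 CPM in the ARF-labelled and 4894 to 6554 CPM in the healthy-labelled libraries, so both kinds of kidney cell were present. At an edgeR adjusted p under 0.05, 6 of the 7 proximal tubule genes tested fell with the ARF label and 0 rose. Of the 11 genes tested in the loop, distal tubule and collecting duct list, 10 rose and 1 fell. Whether these changes go with renal failure was not tested. Clu and Krt20, known to rise in damaged tubules and chosen here with their values known, went against the labels. Clu, a secreted chaperone, stood at 1352 ± 342 CPM in the ARF-labelled and 6923 ± 2287 CPM in the healthy-labelled libraries, and Krt20, a keratin, at 12.2 ± 3.66 CPM in the ARF-labelled and 158 ± 16.7 CPM in the healthy-labelled libraries (SD, n = 3 each). The groups are therefore called ARF-labelled and healthy-labelled throughout.

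Exon bases of some members are shown, because the members' values below rest on counted intervals that hold only a small part of each gene's exons. They were copied from the GENCODE M21 transcripts (GRCm38), 5′ to 3′ along the gene. For Akap11 the 2 coding exons are given whole with the counted bases in capitals, at chr14:78516323-78516457 (exon 4 of Akap11-201) and chr14:78514807-78515071 (exon 5), minus strand. Of Akap13 (chr7:75704365-75704539, plus strand, exon 17 of Akap13-201), Akap9 (chr5:4039239-4039343, plus strand, exon 27 of Akap9-201) and Akap8 (chr17:32309419-32309549, minus strand, exon 12 of Akap8-201) a whole coding exon was counted and stands in capitals. The bases of Akap12 run to the end of its reading frame (chr10:4357805-4357931, plus strand, exon 3 of Akap12-201) with the stop codon in capitals. They lie in a second counted stretch that holds a little of another gene and is described beside the gene's own value. The last-exon bases behind the Akap12 value are not shown, nor are the exon 14 bases of Akap8 or any bases of Akap1 and Akap7.
Akap11 exon 4: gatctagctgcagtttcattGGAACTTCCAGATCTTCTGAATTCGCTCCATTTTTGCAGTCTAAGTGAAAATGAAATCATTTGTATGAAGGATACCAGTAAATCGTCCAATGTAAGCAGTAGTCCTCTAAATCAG
Akap11 exon 5: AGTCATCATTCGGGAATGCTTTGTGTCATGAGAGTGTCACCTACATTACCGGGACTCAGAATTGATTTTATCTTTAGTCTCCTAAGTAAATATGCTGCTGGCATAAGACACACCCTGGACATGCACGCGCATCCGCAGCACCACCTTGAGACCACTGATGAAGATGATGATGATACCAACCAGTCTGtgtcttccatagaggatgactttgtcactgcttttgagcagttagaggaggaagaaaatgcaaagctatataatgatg
Akap13 exon 17: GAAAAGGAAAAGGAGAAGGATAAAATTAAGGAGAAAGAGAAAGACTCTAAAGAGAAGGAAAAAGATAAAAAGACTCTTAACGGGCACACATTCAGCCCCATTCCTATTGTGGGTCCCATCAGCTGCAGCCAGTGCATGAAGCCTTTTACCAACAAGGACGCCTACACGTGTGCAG
Akap9 exon 27: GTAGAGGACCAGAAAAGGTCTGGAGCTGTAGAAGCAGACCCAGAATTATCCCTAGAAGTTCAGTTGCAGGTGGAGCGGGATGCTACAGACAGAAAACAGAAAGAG
Akap8 exon 12: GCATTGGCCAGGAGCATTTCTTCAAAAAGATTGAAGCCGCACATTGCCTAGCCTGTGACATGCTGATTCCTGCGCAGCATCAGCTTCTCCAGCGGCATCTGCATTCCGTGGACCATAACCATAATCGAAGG
Akap12 end of exon 3: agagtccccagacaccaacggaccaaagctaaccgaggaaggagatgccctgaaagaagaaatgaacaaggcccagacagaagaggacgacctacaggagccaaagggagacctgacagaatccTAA

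The comparison between the groups asks how kidneys labelled with renal failure and kidneys labelled healthy differ in these scaffolds. Akap12 stood apart from the other members: it was low in the ARF-labelled libraries and high in the healthy-labelled ones. Akap11 fell in the ARF-labelled libraries, in a call that held in every alternative. Akap9 rose and Akap13 fell, each in a call that was lost in 4 of the 6 fits that left out 1 library, and Akap8 and Akap1 did not pass the test. Of the 5 members at 5 CPM or more in both groups, Akap12 set aside, 1 was called higher and 2 lower at an adjusted p under 0.05. Among the 5246 genes tested 50.0% were called, 25.1% higher and 24.9% lower, and 3 of 5 members called is close to that share. The CPM of the groups did not overlap in 3 of these 5 members, beside 62.4% of all genes tested. The median log2 fold change of these 5 members was -0.04, beside 0.01 over all genes tested. Scaling by the total count alone moved the median of all genes to 0.19 and the calls to 1749 higher and 1013 lower, against 1319 higher and 1305 lower with the TMM scaling used here. Log2 fold changes are from the TMM fit unless another scaling is named, while CPM, and ratios of mean CPM written as -fold, are per total count. The log2 CPM used to rank genes by likeness to Akap12 is TMM-scaled.

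**Figure D1:**
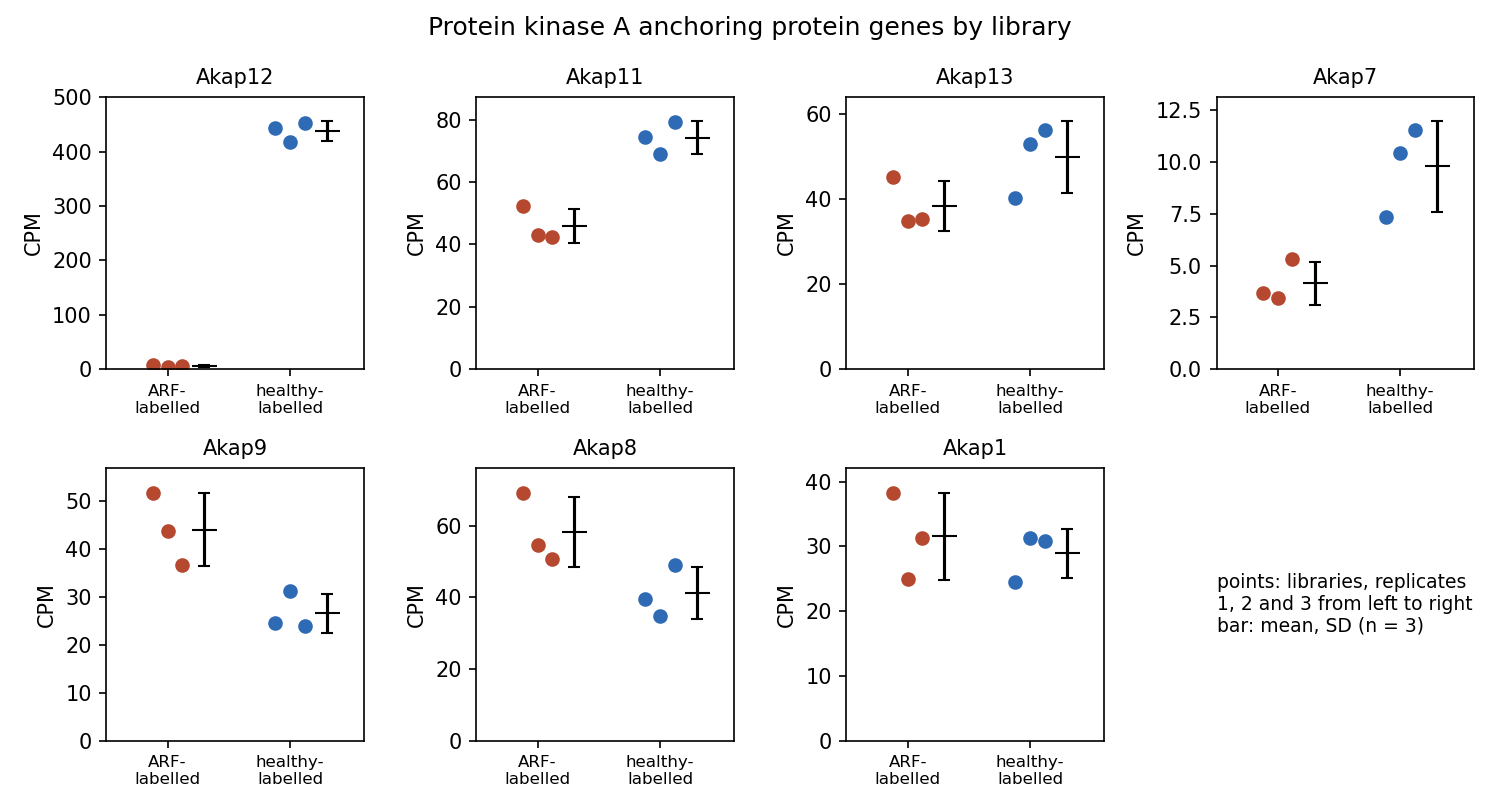
CPM (linear axis from 0) of the 7 members in each library, ARF-labelled in red left of healthy-labelled in blue, with the mean and SD of 3 libraries as a bar. Akap12 lies at 3.98 to 8.06 CPM in the ARF-labelled and 417 to 452 CPM in the healthy-labelled libraries, while the other members differ by far less and those of Akap13 and Akap1 overlap.

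Akap12 (ENSMUSG00000038587.9, chromosome 10, 4266380 to 4359470, plus strand), also called gravin or SSeCKS, is a large scaffold at the plasma membrane that binds PKA, protein kinase C, calmodulin and the beta-2 adrenergic receptor. Of its 6335 exon bases 438 were counted, in the non-coding last exon (4359033 to 4359470). It had 44, 22 and 40 counts in ARF-labelled replicates 1, 2 and 3, and 2533, 1198 and 1640 counts in healthy-labelled replicates 1, 2 and 3. Every healthy-labelled library lay far above every ARF-labelled one. In CPM these counts were 8.06, 3.98 and 6.46 in the ARF-labelled libraries and 444, 417 and 452 in the healthy-labelled libraries. The means were 6.17 ± 2.06 CPM in the ARF-labelled and 437 ± 18.2 CPM in the healthy-labelled libraries (SD, n = 3 each), 70.9-fold lower in the ARF-labelled libraries. The log2 fold change was -6.32 (SE 0.22). Akap12 was picked for this difference, so its values are a description and carry no test. In whole tissue, fewer cells of a type and less RNA per cell cannot be told apart.

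A second counted stretch covered the coding part of Akap12. It held 940 bases of exon 3 (4353142 to 4353501, 4353546 to 4353990 and 4357805 to 4357939), of which all but the last few are coding, and 116 exon bases of Zbtb2, a zinc finger gene that lies next to it. Akap12 made up 89.0% of its exon bases, just under the 0.9 needed, so its counts were not added to the gene. The stretch had 252, 212 and 279 counts in ARF-labelled replicates 1, 2 and 3, and 12267, 5620 and 7803 counts in healthy-labelled replicates 1, 2 and 3. The groups again did not overlap. The means were 43.2 ± 4.23 CPM in the ARF-labelled and 2084 ± 111 CPM in the healthy-labelled libraries, 48.2-fold lower in the ARF-labelled libraries, and the counts of Zbtb2 in it cannot be told from those of Akap12. With this stretch added, the log2 fold change of Akap12 was -5.85. Coding and non-coding parts of the gene were thus both low in the same libraries.

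The last exon gave 14.9% (exact binomial interval 11.0% to 19.4%), 9.40% (5.99% to 13.9%) and 12.5% (9.11% to 16.7%) of the counts of both stretches in ARF-labelled replicates 1, 2 and 3. In healthy-labelled replicates 1, 2 and 3 it gave 17.1% (16.5% to 17.7%), 17.6% (16.7% to 18.5%) and 17.4% (16.6% to 18.1%). The intervals are at 95% (Clopper-Pearson) and cover counting error only. The 3 healthy-labelled libraries had nearly the same share, the ARF-labelled ones had lower shares, and the interval of ARF-labelled replicate 1 took in all 3 healthy-labelled shares. Whether Zbtb2 counts lower the share where Akap12 is low was not tested.

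**Figure D2:**
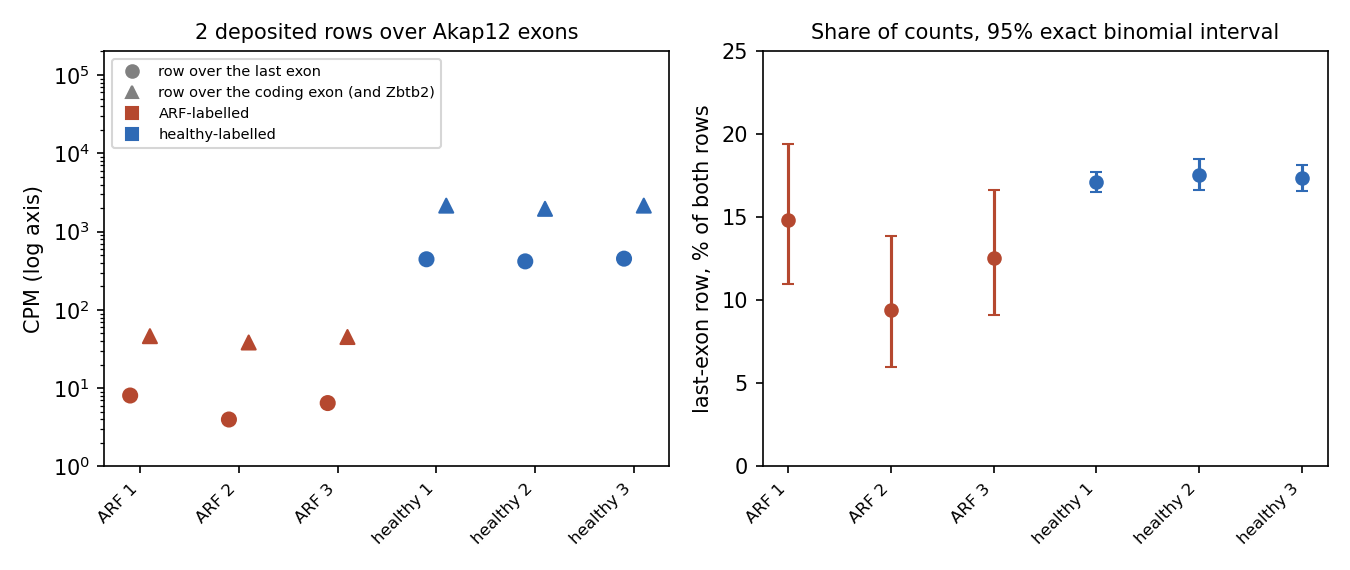
Left, CPM (log axis) in each library over the Akap12 last exon (circles) and over its coding exon with a little of Zbtb2 (triangles); right, the last exon as a percentage of both, with 95% exact binomial intervals, ARF-labelled in red and healthy-labelled in blue. Both stretches are low in all 3 ARF-labelled libraries, at 43.2 CPM on average for the coding one against 2084 CPM in the healthy-labelled libraries.

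Akap11 (ENSMUSG00000022016.16, chromosome 14, 78492246 to 78536808, minus strand), or AKAP220, binds PKA and glycogen synthase kinase 3 and takes part in aquaporin-2 trafficking in the mouse collecting duct. The counted bases were 302 of 9367 exon bases, those of exons 4 and 5 shown in capitals above. It stood at 52.2, 43.1 and 42.5 CPM in ARF-labelled replicates 1, 2 and 3, and at 74.6, 68.9 and 79.3 CPM in healthy-labelled replicates 1, 2 and 3. All ARF-labelled libraries lay below all healthy-labelled ones. The mean was 45.9 ± 5.47 CPM in the ARF-labelled and 74.3 ± 5.21 CPM in the healthy-labelled libraries (SD, n = 3 each), and the log2 fold change was -0.87 (SE 0.13; edgeR quasi-likelihood test, adjusted p = 0.000875). It passed the test in every alternative run, with an adjusted p of at most 0.00527 when 1 library was left out.

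Akap13 (ENSMUSG00000066406.15, chromosome 7, 75455534 to 75754609, plus strand), or AKAP-Lbc, is both a PKA scaffold and an exchange factor that switches on the GTPase RhoA. Of its 12609 exon bases 175 were counted, the coding exon 17. It stood at 45.1, 34.7 and 35.2 CPM in ARF-labelled replicates 1, 2 and 3, and at 40.3, 52.9 and 56.2 CPM in healthy-labelled replicates 1, 2 and 3. The groups overlapped, since ARF-labelled replicate 1 lay above healthy-labelled replicate 1. The mean was 38.3 ± 5.84 CPM in the ARF-labelled and 49.8 ± 8.40 CPM in the healthy-labelled libraries, and the log2 fold change was -0.54 (SE 0.17; edgeR adjusted p = 0.0242). The call was lost when ARF-labelled replicate 2 (adjusted p = 0.0802) or 3 (0.0826), or healthy-labelled replicate 2 (0.0541) or 3 (0.0793), was left out, and with scaling by total count (log2 fold change -0.37, adjusted p = 0.0990).

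Akap7 (ENSMUSG00000039166.16, chromosome 10, 25169090 to 25307870, minus strand), or AKAP18, has a long form that sits on aquaporin-2 vesicles in the rat collecting duct. Only 79 of 3856 exon bases were counted, in a non-coding part of exon 5 of the transcript Akap7-202, and Akap7 is the member nearest to the level limit. It stood at 3.67, 3.44 and 5.33 CPM in ARF-labelled replicates 1, 2 and 3, and at 7.36, 10.4 and 11.6 CPM in healthy-labelled replicates 1, 2 and 3. The groups did not overlap, and the mean was 4.145 ± 1.03 CPM in the ARF-labelled and 9.79 ± 2.18 CPM in the healthy-labelled libraries (log2 fold change -1.39, SE 0.29). Since Akap7 passed the level through the healthy-labelled libraries alone, it carries no test. The readable genes below the limit were far from it: Akap6, an anchoring protein of the nuclear envelope in heart muscle, averaged 0.0603 CPM in the ARF-labelled and 0.117 CPM in the healthy-labelled libraries, and Akap3, a sperm protein, had 2 counts in the ARF-labelled and 0 in the healthy-labelled libraries.

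Akap9 (ENSMUSG00000040407.17, chromosome 5, 3928054 to 4081310, plus strand), or AKAP450, is a coiled-coil scaffold of the centrosome and the Golgi apparatus. Of 13123 exon bases 105 were counted, the coding exon 27. It stood at 51.9, 43.8 and 36.7 CPM in ARF-labelled replicates 1, 2 and 3, and at 24.5, 31.3 and 24.0 CPM in healthy-labelled replicates 1, 2 and 3. All ARF-labelled libraries lay above all healthy-labelled ones. The mean was 44.1 ± 7.61 CPM in the ARF-labelled and 26.6 ± 4.10 CPM in the healthy-labelled libraries, and the log2 fold change was 0.56 (SE 0.17; edgeR adjusted p = 0.0236). Leaving out ARF-labelled replicate 1 (adjusted p = 0.0704) or 2 (0.0508), or healthy-labelled replicate 1 (0.0781) or 3 (0.0979), ended the call, although the log2 fold change stayed between 0.45 and 0.70. A further stretch, in which Akap9 held 1053 of 2100 exon bases beside Cyp51 and Gm43031, averaged 338 ± 62.8 CPM in the ARF-labelled and 227 ± 6.71 CPM in the healthy-labelled libraries, and the reads of the 3 genes cannot be told apart in it.

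Akap8 (ENSMUSG00000024045.6, chromosome 17, 32303672 to 32321238, minus strand), or AKAP95, is a nuclear scaffold that binds chromatin. It was read through 210 of 3731 exon bases, the coding exon 12 and a non-coding part of exon 14. It stood at 69.3, 54.7 and 50.7 CPM in ARF-labelled replicates 1, 2 and 3, and at 39.6, 34.8 and 49.0 CPM in healthy-labelled replicates 1, 2 and 3. The groups did not overlap in CPM, by a narrow gap. The mean was 58.2 ± 9.78 CPM in the ARF-labelled and 41.1 ± 7.24 CPM in the healthy-labelled libraries, and the log2 fold change of 0.32 (SE 0.17) did not pass the test (edgeR adjusted p = 0.157). With scaling by total count alone it passed (log2 fold change 0.50, adjusted p = 0.0391).

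Akap1 (ENSMUSG00000018428.15, chromosome 11, 88830792 to 88864586, minus strand) holds PKA at the outer membrane of mitochondria. It was read through 134 different bases of 3979, in 3 short coding pieces, of which 1 was counted under 2 names. It stood at 38.3, 24.98 and 31.3 CPM in ARF-labelled replicates 1, 2 and 3, and at 24.5, 31.3 and 30.8 CPM in healthy-labelled replicates 1, 2 and 3. Neither group was the higher one, and the mean was 31.5 ± 6.67 CPM in the ARF-labelled and 28.9 ± 3.798 CPM in the healthy-labelled libraries. The log2 fold change was -0.04 (SE 0.18, edgeR adjusted p = 0.871), and it lay between -0.18 and 0.10 when 1 library was left out. A miss of the threshold does not show that the level is the same.

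The other 5 genes of the name could not be read alone. Akap2 is a scaffold that shares a locus with Palm2. All its 7735 exon bases lay in a stretch with 3482 exon bases of Palm2. That stretch had 1458, 1154 and 1264 CPM in ARF-labelled replicates 1, 2 and 3, and 2899, 5349 and 4842 CPM in healthy-labelled replicates 1, 2 and 3. All ARF-labelled libraries were lower, but the part of each gene in the count was not tested. Akap5, which anchors PKA at synapses, held 249 of 671 exon bases of a stretch shared with Mthfd1 and Zbtb25, at 88.1 ± 10.7 CPM in the ARF-labelled and 47.7 ± 3.41 CPM in the healthy-labelled libraries. Akap4, Akap10 and Akap14 were assigned no counted stretch and were not analysed here.

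The members differed in how far they resembled Akap12 over the 6 libraries, measured as the root mean square difference in log2 CPM after each gene's own mean was taken off. The 5 nearest genes were Hpcal4, Sprr2d, Fosl1, Il11 and Cxcl3. All but Hpcal4 had 0 to 6 counts in each ARF-labelled library, so their places depend on the prior count of 2 added before the log. Their fitted log2 fold changes were -9.61 (Sprr2d), -7.21 (Fosl1), -7.27 (Il11) and -6.51 (Cxcl3), beside -6.32 for Akap12. Since Akap12 splits the libraries by group, likeness to it is mostly likeness in that split, and it is a description with no test. Hpcal4, a neuronal calcium sensor gene, came first at 0.33 on the log2 scale. It had 63, 41 and 102 counts in ARF-labelled replicates 1, 2 and 3, and 4257, 1684 and 1953 counts in healthy-labelled replicates 1, 2 and 3 (log2 fold change -5.89), and its groups did not overlap. Fosl1, an AP-1 transcription factor, at 0.44, had 2, 3 and 6 counts in the ARF-labelled and 426, 286 and 324 in the healthy-labelled libraries. The epithelial stress gene Sprr2d, at 0.43, had 0 counts in the ARF-labelled and 228 in the healthy-labelled libraries, and it has near-identical copies that make its reads uncertain. Il11, a cytokine, at 0.52, had 3 counts in the ARF-labelled and 327 in the healthy-labelled libraries, and the chemokine gene Cxcl3, at 0.84, had 4 in the ARF-labelled and 246 in the healthy-labelled libraries. The other members were much farther off, from 2.499 for Akap7 to 3.43 for Akap9, but so were most genes. Among the genes tested Akap7 ranked 472, Akap11 806, Akap13 1226, Akap1 2309, Akap8 3441 and Akap9 3963. A gene that hardly changes lies about as far off as Akap1, which was at 3.11 with a log2 fold change of -0.04.

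**Figure D3:**
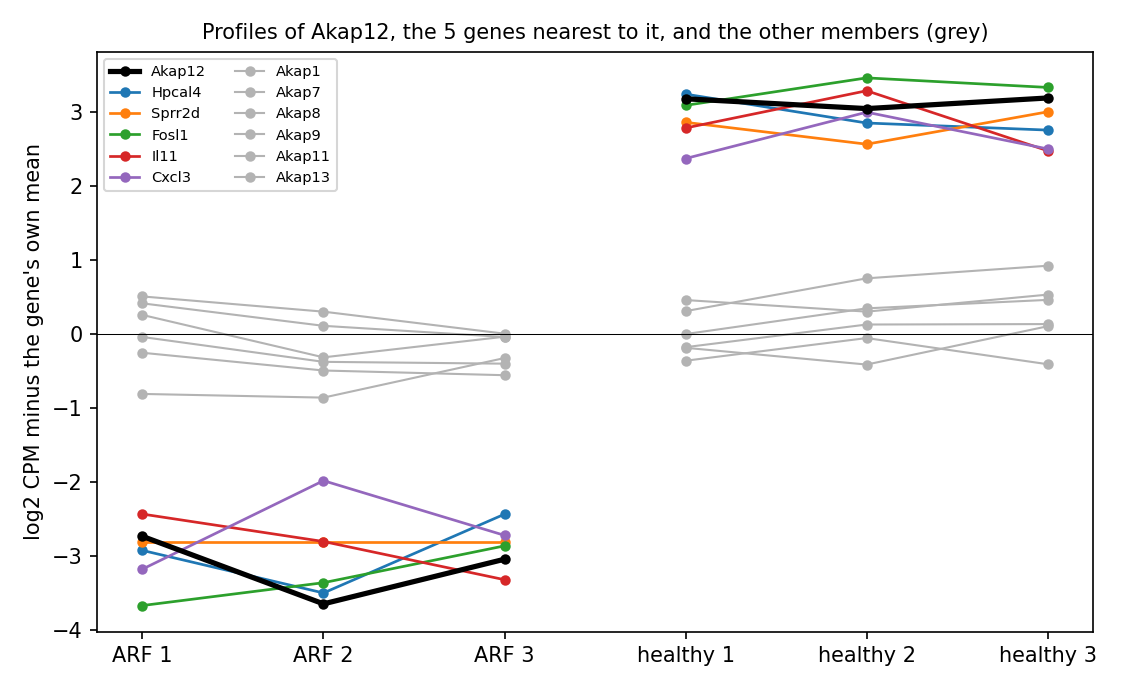
Log2 CPM minus the gene's own mean in each library, ARF-labelled left of healthy-labelled, for Akap12 (black), the 5 genes nearest to it (colours) and the other members (grey); lines join libraries of a group and mean no order. Akap12 and its 5 neighbours are low in all ARF-labelled and high in all healthy-labelled libraries, while the other members, 2.499 to 3.43 away, stay near their own mean.

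Akap12 is known in endothelial cells, fibroblasts, pericytes and podocytes, and markers of these cells were read beside it. The 7 endothelial genes read, of 14 listed, summed to 166 to 203 CPM in the ARF-labelled and 192 to 379 CPM in the healthy-labelled libraries, with 3 called lower and 0 higher. Over all genes tested 24.9% were called lower and 25.1% higher. Of the 7 endothelial genes Robo4, a guidance receptor, changed most. It fell to 6.02 ± 1.21 CPM in the ARF-labelled, against 28.5 ± 9.55 CPM in the healthy-labelled libraries (log2 fold change -2.39, edgeR adjusted p = 0.000263). Pecam1 (log2 fold change -1.29) and Eng (-1.03) were also called lower. Tek (0.59), Vwf (0.23), Ehd3 (0.08) and Tie1 (-0.22) did not pass the test. The 8 genes of fibroblasts, pericytes and smooth muscle, of 15, summed to 312 to 541 CPM in the ARF-labelled and 242 to 1650 CPM in the healthy-labelled libraries, with 2 called higher and 1 lower. The highest of these sums was that of healthy-labelled replicate 2, which had 848 CPM of the collagen gene Col1a1. The 3 podocyte genes, of 10, summed to 359 to 481 CPM in the ARF-labelled and 231 to 353 CPM in the healthy-labelled libraries, a sum made up mostly of Thsd7a. Synpo, the podocyte actin protein synaptopodin, fell to 4.11 ± 0.602 CPM in the ARF-labelled, against 19.2 ± 2.79 CPM in the healthy-labelled libraries (log2 fold change -2.37, edgeR adjusted p = 7.8e-05), and Thsd7a rose (log2 fold change 0.49, edgeR adjusted p = 0.0433). No marker read was at 0 in every library. The part of these cells in the fall of Akap12 was not tested.

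Markers of leukocytes and urothelium, and 2 early stress genes, were read as well. The 2 neutrophil genes read, of 10, summed to 3.08 to 6.95 CPM in the ARF-labelled and 46.6 to 155 CPM in the healthy-labelled libraries, and both fell, beside 24.9% lower over all genes tested. The 6 macrophage genes, of 11, summed to 29.7 to 36.2 CPM in the ARF-labelled and 50.8 to 103 CPM in the healthy-labelled libraries, and 5 fell while Lyz2 did not pass the test (log2 fold change -0.67, edgeR adjusted p = 0.224). The immediate early gene Junb, an AP-1 transcription factor that answers within minutes to stress or handling, stood at 376 ± 106 CPM in the ARF-labelled and 1843 ± 358 CPM in the healthy-labelled libraries. Dusp1, an early phosphatase, stood at 54.9 ± 15.3 CPM in the ARF-labelled and 394 ± 108 CPM in the healthy-labelled libraries. Junb and Dusp1, like Clu and Krt20, were chosen with their values known. The 2 urothelial genes read, of 7, summed the other way, to 237 to 293 CPM in the ARF-labelled and 70.5 to 210 CPM in the healthy-labelled libraries. Of these Upk3a rose (log2 fold change 1.86, edgeR adjusted p = 0.00081), while Krt5 did not pass the test (log2 fold change -0.57, edgeR adjusted p = 0.296). The part of any of these cells or genes in the fall of Akap12 was not tested.

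The rest of the cyclic AMP and PKA pathway was read through 7 gene lists of 113 genes, of which 52 could be read and 44 passed the filter on low counts. Of these 44 genes, 12 rose and 16 fell in the ARF-labelled libraries, with a median log2 fold change of -0.02, and 63.6% were called, beside 50.0% of all genes. The counts in each list below stand beside 25.1% called higher and 24.9% called lower over all genes tested. Members of most lists moved in both directions. The catalytic subunit genes Prkaca and Prkacb were not analysed here.

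Of 10 genes for PKA subunits and inhibitors 4 were read, and 1 rose and 2 fell. Prkar2a, the RII-alpha regulatory subunit that most anchoring proteins bind, stood at 184 ± 12.2 CPM in the ARF-labelled and 294 ± 6.72 CPM in the healthy-labelled libraries. The groups lay well apart, and Prkar2a fell by 0.85 on the log2 scale (SE 0.10, edgeR adjusted p = 0.000241). Prkx, a catalytic kinase related to PKA, fell to 60.3 ± 7.18 CPM in the ARF-labelled, against 99.2 ± 10.1 CPM in the healthy-labelled libraries (log2 fold change -0.89, edgeR adjusted p = 0.000844). Pkig, which encodes an inhibitor of the PKA catalytic subunit, rose to 45.8 ± 5.69 CPM in the ARF-labelled, against 21.3 ± 2.22 CPM in the healthy-labelled libraries (log2 fold change 0.92, edgeR adjusted p = 0.00145). Only 95 of the 1425 exon bases of Pkig were counted. Prkar1a, the RI-alpha regulatory subunit, stood at 244 ± 17.0 CPM in the ARF-labelled and 210 ± 12.4 CPM in the healthy-labelled libraries and did not pass the test (log2 fold change 0.04, SE 0.11, edgeR adjusted p = 0.787).

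Of the enzymes that make cyclic AMP, 3 of 10 adenylyl cyclases were tested. Adcy9 rose to 37.2 ± 4.63 CPM in the ARF-labelled, against 18.7 ± 1.34 CPM in the healthy-labelled libraries (log2 fold change 0.82, edgeR adjusted p = 0.00161). Adcy1 fell at a low level, to 3.43 CPM in the ARF-labelled against 8.03 CPM in the healthy-labelled libraries (log2 fold change -1.36, edgeR adjusted p = 0.0186), and lost the call without ARF-labelled replicate 2 or healthy-labelled replicate 3. Of 8 phosphodiesterases, which break down cyclic nucleotides, 1 rose and 3 fell. Pde4c rose to 153 ± 36.7 CPM in the ARF-labelled, against 61.3 ± 12.5 CPM in the healthy-labelled libraries (log2 fold change 1.13, edgeR adjusted p = 0.00194), and Pde3a fell to 12.9 ± 3.08 CPM in the ARF-labelled, against 39.1 ± 14.8 CPM in the healthy-labelled libraries (log2 fold change -1.75, edgeR adjusted p = 0.00154). The falls of Pde3b (log2 fold change -0.64, edgeR adjusted p = 0.0234) and Pde10a (log2 fold change -0.81, edgeR adjusted p = 0.0389) were lost in 3 and in 6 of the 6 fits that left out 1 library. Scaling by total count also ended the calls of Pde3b (adjusted p = 0.0618) and Pde10a (0.0841), and that of Pde10a was lost with the replicate block (0.0636), DESeq2 (0.0640) and no filter on low counts (0.0715) as well.

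Among G proteins and receptors that act through cyclic AMP, 5 of 17 were tested, and 1 rose and 4 fell. The inhibitory alpha subunit gene Gnai3 fell to 605 ± 33.1 CPM in the ARF-labelled, against 1090 ± 105 CPM in the healthy-labelled libraries (log2 fold change -1.03, edgeR adjusted p = 0.000276), and its relative Gnai2 fell by 0.59 on the log2 scale (edgeR adjusted p = 0.00230). Pth1r, the parathyroid hormone receptor, fell to 387 ± 88.6 CPM in the ARF-labelled, against 622 ± 80.2 CPM in the healthy-labelled libraries (log2 fold change -0.86, edgeR adjusted p = 0.00466). The glucagon receptor gene Gcgr rose to 46.4 ± 7.38 CPM in the ARF-labelled, against 14.2 ± 3.68 CPM in the healthy-labelled libraries (log2 fold change 1.53, edgeR adjusted p = 0.000421). Calcr, the calcitonin receptor, had a log2 fold change of -1.36 (edgeR adjusted p = 0.0150) and lost the call without ARF-labelled replicate 2 or healthy-labelled replicate 1. Pth1r is a gene of the proximal tubule, where 6 of 7 markers tested fell, beside 24.9% lower over all genes tested. The part of the proximal tubule in the change of Pth1r was not tested.

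Downstream of PKA, 5 of 15 effector and CREB factor genes were tested, and 0 rose and 3 fell. Sik1, a kinase that is itself induced by cyclic AMP and restrains the CREB coactivators, had 136, 80.4 and 115 CPM in ARF-labelled replicates 1, 2 and 3, and 476, 479 and 502 CPM in healthy-labelled replicates 1, 2 and 3. The groups lay far apart (log2 fold change -2.31, SE 0.18, edgeR adjusted p = 3.5e-05). Crem, a cyclic AMP responsive transcription factor whose short form is also induced, fell to 244 ± 38.0 CPM in the ARF-labelled, against 529 ± 130 CPM in the healthy-labelled libraries (log2 fold change -1.29, edgeR adjusted p = 0.000976). Sik3 fell by 0.53 on the log2 scale (edgeR adjusted p = 0.00425).

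Among anchoring proteins outside the numbered members, 9 of 22 were tested, and 5 rose and 2 fell. Akap17b, whose symbol ends in a letter, rose to 20.1 ± 3.37 CPM in the ARF-labelled, against 4.90 ± 0.817 CPM in the healthy-labelled libraries (log2 fold change 1.85, edgeR adjusted p = 0.000344). Lrba, a vesicle trafficking protein, rose to 80.9 ± 3.62 CPM in the ARF-labelled, against 29.1 ± 6.18 CPM in the healthy-labelled libraries (log2 fold change 1.28, edgeR adjusted p = 0.000354). Only 80 of the 11564 exon bases of Lrba were counted. Pcnt, the centrosomal scaffold pericentrin, rose too (log2 fold change 0.82, edgeR adjusted p = 0.00101), as did Nbea (0.61, edgeR adjusted p = 0.0241), a relative of Lrba whose call was lost in 3 of 6 fits that left out 1 library. Ezr, which encodes ezrin, the linker of membrane and actin in brush borders, fell to 68.3 ± 16.0 CPM in the ARF-labelled, against 218 ± 26.4 CPM in the healthy-labelled libraries (log2 fold change -1.85, edgeR adjusted p = 7.8e-05).

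Of 23 enzymes and partners that anchoring proteins bind, 10 were tested, and 3 rose and 1 fell. Dlg1, a membrane scaffold, rose to 190 ± 11.8 CPM in the ARF-labelled, against 107 ± 6.81 CPM in the healthy-labelled libraries (log2 fold change 0.65, edgeR adjusted p = 0.00105). Prkd1, a kinase that Akap13 binds, rose to 12.5 ± 1.65 CPM in the ARF-labelled, against 4.68 ± 1.40 CPM in the healthy-labelled libraries (log2 fold change 1.27, edgeR adjusted p = 0.00484). Prkcd, a protein kinase C, rose by a small amount (log2 fold change 0.42, edgeR adjusted p = 0.00783) and lost the call without healthy-labelled replicate 3 (adjusted p = 0.0502). Src, the tyrosine kinase that binds Akap12, fell to 15.3 ± 3.49 CPM in the ARF-labelled, against 28.4 ± 0.527 CPM in the healthy-labelled libraries (log2 fold change -1.07, edgeR adjusted p = 0.00145) and was read through 40 exon bases only.

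**Figure D4:**
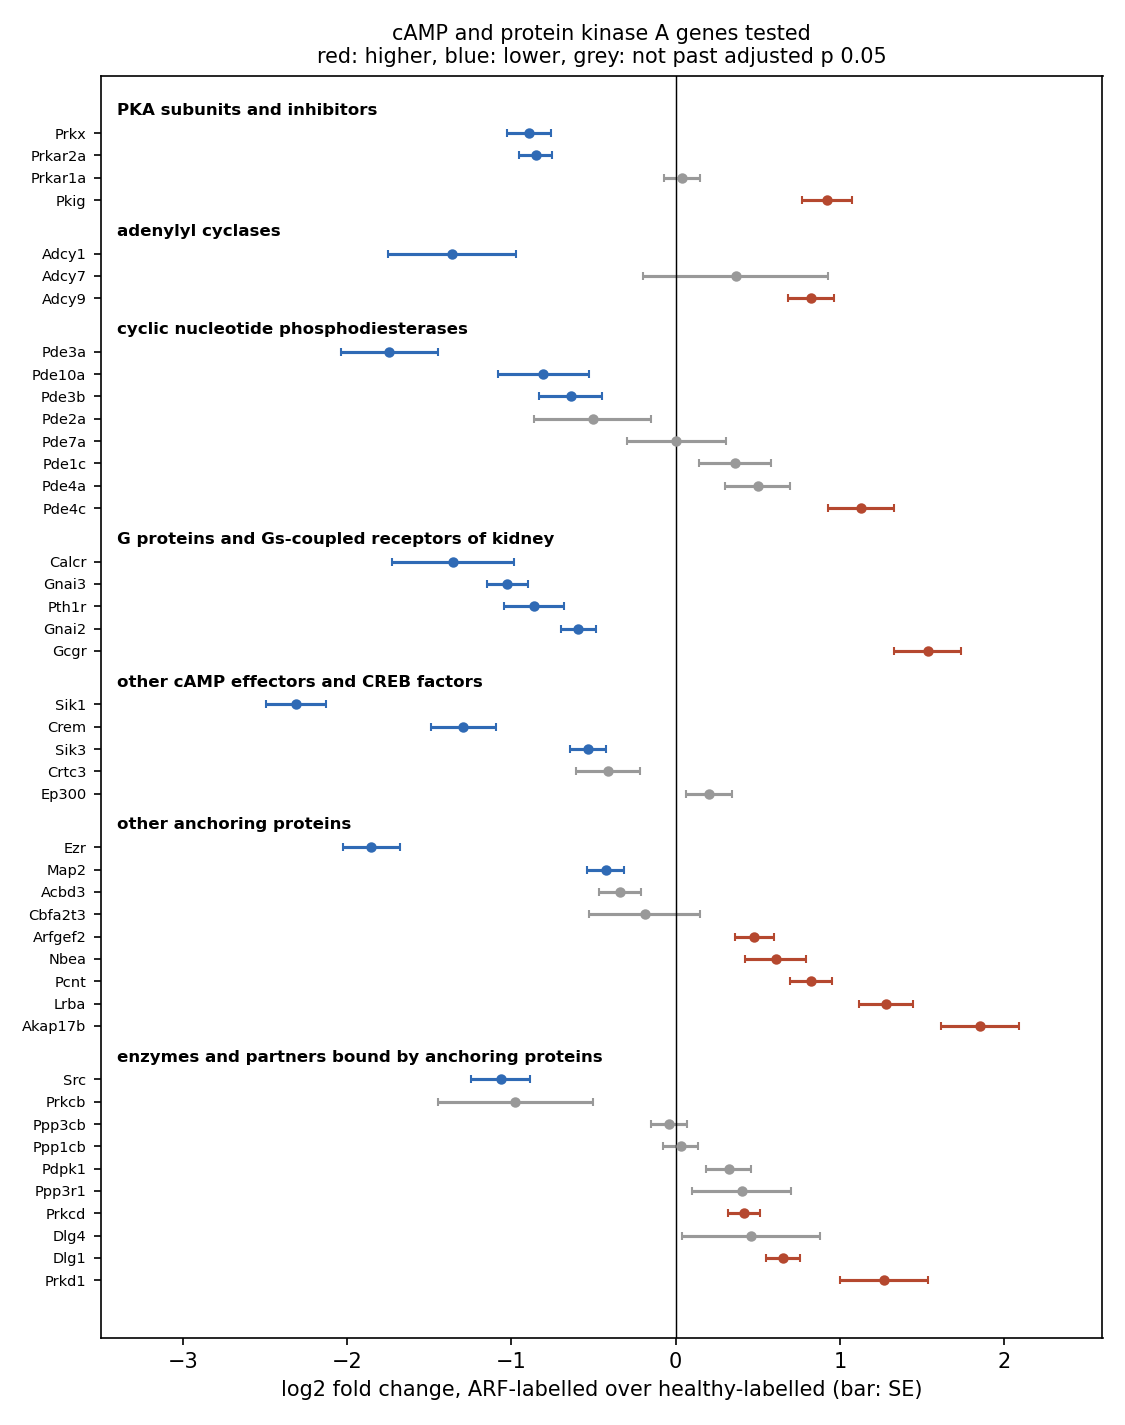
Log2 fold change of the ARF-labelled over the healthy-labelled libraries, with its SE, for the 44 pathway genes tested, by list; red marks genes that rose, blue genes that fell, and grey genes that did not pass an adjusted p of 0.05. The genes range from Sik1 at -2.31 to Akap17b at 1.85, and 12 rose and 16 fell.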

How the data were processed

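Kidney RNA was extracted with Trizol and made into TruSeq libraries from 1 microgram, per the labels. The authors deposited counts of fragments per row for 6 libraries. Per the file headers they were made with featureCounts 2.0.1 over exons, without regard to strand. The headers name the input alignments by archive run identifiers, and no source used here ties those runs to the labelled samples, so the groups rest on the labels alone. Bowtie 0.12.2 and mm9 are listed in the submitters' processing notes, whose link to these counts is not given. A deposited table of the whole series was not used.

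Row intervals (53546 rows) were intersected with exons of GENCODE M21 basic protein-coding and long non-coding genes (GRCm38) by bedtools 2.31.1, run from Python 3.11.15 (pandas 2.3.3). A row went to the gene with a share of 0.9 or more of the exon bases it overlapped, 25 at the least, and a gene's rows were summed. Bases of a row outside exons did not enter the share, but any reads there stayed in the count. In all, 12401 rows with 63.0% of the counts were named, for 9519 genes. Reads of overlapping genes on the other strand cannot be told apart from those of the gene.

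Groups were compared by the quasi-likelihood test of edgeR 4.0.16 in R 4.3.3 with TMM, filterByExpr, totals of every row and no covariate, two-sided, with Benjamini-Hochberg adjustment over the 5246 genes tested. CPM is relative to the total count, and means are given with SD over n = 3. Every readable Akap gene is named, with all PKA subunit genes read and, in each pathway list, up to 5 called genes of largest change, and the 5 genes nearest to Akap12 (CPM prior count 2). Clu, Krt20, Junb, Dusp1 and the genes sharing stretches with members are outside that rule. Members and lists were chosen with earlier results of these data known. The alternatives were other scaling, DESeq2 1.42.0, no filter, stricter assignment, totals over assigned rows, a replicate block and leaving out each library, and an added assignment at 0.85 that was chosen after seeing the data.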

Additional observations from a re-analysis of the deposited data

How the results depend on the processing

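No fold change of a member or named pathway gene that was called turned in direction under any alternative. Leaving out 1 library gave log2 fold changes of -6.53 to -6.09 for Akap12, -0.95 to -0.80 for Akap11, -0.68 to -0.47 for Akap13, 0.45 to 0.70 for Akap9, 0.20 to 0.44 for Akap8, -0.18 to 0.10 for Akap1 and -1.59 to -1.27 for Akap7. It gave 985 to 1183 genes higher and 1120 to 1313 lower, and 10 to 13 pathway genes higher and 13 to 16 lower. The call of Akap13 was also lost with scaling by total count (-0.37) and with the replicate block (-0.54, adjusted p = 0.0570), and that of Akap8 was gained with scaling by total count (0.50). Akap1 was not called under any alternative that could read it. With at least 100 exon bases required, Akap1, Akap7, Pkig, Lrba, Dlg1 and Src had no value. Crem had none with a share of at least 0.99.

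The labels number the libraries 1 to 3 in both groups. Same-numbered libraries had deviations from their group means that correlated at -0.07, -0.22 and -0.29, and 0 of 6 libraries correlated best with their own number. No pairing by number was seen, but with 3 libraries per group this check is weak and cannot exclude it. With the replicate block 1135 genes were higher and 1153 lower. Members were read through short stretches, such as 79 bases of Akap7 and 105 of Akap9, which limits their counts.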
